A study of Mus musculus with 25 samples.

Results

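The 10 genes described here encode the cyclins, kinases and kinase inhibitors that set the pace of the G1 phase of the cell cycle: the D-type cyclins *Ccnd1*, *Ccnd2* and *Ccnd3*, the E-type cyclins *Ccne1* and *Ccne2*, the D-cyclin kinases *Cdk4* and *Cdk6*, and the inhibitors *Cdkn1b*, *Cdkn2a* and *Cdkn2b*. They were chosen by name, and all 10 were found by gene identifier among the 48440 genes of the count table. Their RNA levels were followed in mouse embryonic stem (ES) cells in which β-catenin signaling was raised by a drug or by a mutation.

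D-type cyclins bind CDK4 or CDK6, and E-type cyclins bind CDK2. Both kinds of complex phosphorylate the retinoblastoma protein, which frees E2F transcription factors to switch on genes of DNA replication. The INK4 inhibitors (encoded by *Cdkn2a* and *Cdkn2b*) block CDK4 and CDK6, and p27 (encoded by *Cdkn1b*) blocks cyclin E–CDK2. Mouse ES cells are known for a short G1 phase and little INK4 expression, and *Ccnd1* is a classical target of Wnt and β-catenin in other tissues.

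Unedited cells of the feeder-free mouse ES line E14 were treated for 48 h with CHIR99021, an inhibitor of the kinase GSK3 that blocks β-catenin degradation, at 0, 2.5, 5, 7.5 or 10 µM (2 libraries per dose, 10 in all). The other 15 libraries came from 15 E14 clones, 1 library per clone, each heterozygous for 1 of 11 missense mutations at codon 37, 41 or 45 of the endogenous *Ctnnb1* gene and labelled 0 µM and 48 h. Every mutation stood for 1 clone, except S37F, S45F, T41A and T41I with 2 clones each. The clones had passed through targeting with a selection cassette and its replacement by repair, which the unedited cells had not. All cells grew in medium with serum.

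Clones were ordered by the mutational effect score (MES) of their mutation, a measure of TCF/LEF reporter activation that was obtained in other ES cells and not in these libraries. From the lowest score upward, the low category has clone H8 of T41S, clone D3 of S45C and clone D3 of T41N, and the medium category clone G5 of S45P and both S45F clones, C1 and D9. The high category has 9 clones. They carry S37Y (clone A5), S37C (G12), S37A (A10), T41A (C1 and E6), T41I (A6 and B9) or S37F (G1 and H2). The 3 categories were drawn in the study by clustering of these same libraries, so that a difference between categories is not independent of how they were drawn. The question for these genes was whether their RNA moved with dose, with MES, or with the presence of a mutation.

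Libraries held 306157 to 2083398 UMI counts (deduplicated molecules) and 12399 to 16853 detected genes, and levels are given as CPM, the counts of a gene per 1000000 counts of its library. A count of 0 allows up to 3 counts, or 1.44 to 9.80 CPM depending on the library. Intervals of single libraries are Wilson 95% intervals and cover counting error only. The labels do not say whether libraries of 1 dose came from separate cultures, so p-values measure the spread between these libraries. Among the 10 unedited libraries, 4 had a mitochondrial share of 0.485 to 0.562% (0 µM replicate 2, 2.5 µM replicate 1, 5 µM replicate 1 and 10 µM replicate 1) and 6 a share of 0.986 to 1.46%, against 1.53 to 2.52% in the clones. All 10 ES cell markers had counts in each group, *Pou5f1* and *Sox2* included. *Axin2*, the standard readout of the pathway, rose from 13.8 and 15.8 CPM at 0 µM to 98.0 and 134 CPM at 10 µM (log2 fold change 3.05, adjusted p = 2.25e-12, edgeR). It was 22.6 to 42.4 CPM in the low clones, 22.9 to 33.3 CPM in the medium clones and 38.9 to 87.4 CPM in the high clones. High against low clones gave 0.85 (adjusted p = 0.0134, edgeR). The mean of the medium clones, 28.8 CPM, was below the 34.4 CPM of the low clones, so *Axin2* did not follow the order of the categories.

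RefSeq promoter windows (GRCm38.p6, 250 bases before to 50 bases after the annotated start) were found for 7 of the 10 genes, as 9 windows. Of these, 6 are shown because they belong to the genes whose RNA moved (*Ccnd3*, which has 2 starts, *Ccne1*, *Cdkn1b* and *Cdkn2b*) and to *Cdk4*, whose RNA did not pass a test. Capitals mark matches, on either strand, to the TCF/LEF core CTTTGA, the E-box CACGTG, the E2F site TTTNGCGC, the cyclic AMP response element core TGACGT and the CCAAT box.
Ccnd3, upstream start (chr17:47504801-47505100, plus strand): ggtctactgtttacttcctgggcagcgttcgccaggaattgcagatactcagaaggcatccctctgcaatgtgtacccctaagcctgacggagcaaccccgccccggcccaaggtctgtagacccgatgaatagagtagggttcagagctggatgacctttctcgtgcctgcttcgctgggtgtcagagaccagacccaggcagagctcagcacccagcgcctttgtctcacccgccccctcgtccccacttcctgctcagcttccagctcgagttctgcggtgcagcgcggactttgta
Ccnd3, downstream start (chr17:47593217-47593516, plus strand): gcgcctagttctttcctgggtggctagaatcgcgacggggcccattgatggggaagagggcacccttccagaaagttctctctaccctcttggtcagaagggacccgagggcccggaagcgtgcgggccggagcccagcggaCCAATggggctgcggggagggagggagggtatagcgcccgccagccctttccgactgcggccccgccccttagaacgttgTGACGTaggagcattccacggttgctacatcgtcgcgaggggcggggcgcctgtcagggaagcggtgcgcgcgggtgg
Ccne1 (chr7:38107441-38107740, minus strand): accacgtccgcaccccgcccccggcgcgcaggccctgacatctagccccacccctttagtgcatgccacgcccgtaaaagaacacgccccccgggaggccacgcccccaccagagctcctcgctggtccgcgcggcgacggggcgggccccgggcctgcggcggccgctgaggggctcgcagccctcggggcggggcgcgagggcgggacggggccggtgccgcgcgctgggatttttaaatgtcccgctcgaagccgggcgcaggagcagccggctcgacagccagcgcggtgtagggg
Cdkn1b (chr6:134920151-134920450, plus strand): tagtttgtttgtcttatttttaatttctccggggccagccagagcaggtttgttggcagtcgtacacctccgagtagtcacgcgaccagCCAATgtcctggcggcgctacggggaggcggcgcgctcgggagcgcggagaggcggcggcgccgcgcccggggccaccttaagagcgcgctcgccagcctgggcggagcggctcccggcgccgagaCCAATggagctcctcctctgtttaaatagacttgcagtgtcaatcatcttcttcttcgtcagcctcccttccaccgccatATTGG
Cdkn2b (chr4:89310983-89311282, minus strand): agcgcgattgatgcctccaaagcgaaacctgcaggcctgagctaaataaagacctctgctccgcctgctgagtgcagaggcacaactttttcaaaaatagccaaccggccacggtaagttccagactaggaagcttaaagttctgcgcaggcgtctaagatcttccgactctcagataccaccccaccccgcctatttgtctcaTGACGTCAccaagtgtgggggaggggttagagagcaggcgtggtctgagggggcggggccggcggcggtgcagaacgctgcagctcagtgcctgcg
Cdk4 (chr10:127063285-127063584, plus strand): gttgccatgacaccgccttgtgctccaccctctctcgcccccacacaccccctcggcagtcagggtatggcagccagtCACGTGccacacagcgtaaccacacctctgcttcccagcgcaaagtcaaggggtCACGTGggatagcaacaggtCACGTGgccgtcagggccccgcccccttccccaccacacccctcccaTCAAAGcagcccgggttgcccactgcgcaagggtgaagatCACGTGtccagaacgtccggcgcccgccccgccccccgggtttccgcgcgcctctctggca

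The TCF/LEF core was found in 1 of the 9 windows, that of *Cdk4*, and in 16.0% of the 32851 mouse promoters of the same length. The *Cdk4* window also held 4 E-boxes, a motif present in 7.15% of all promoters, and that of *Cdk6* held 1. *Cdkn1b* had 3 CCAAT boxes (37.4% of all promoters had at least 1). The downstream *Ccnd3* start had 1 CCAAT box and 1 TGACGT, and *Cdkn2b* had the palindrome TGACGTCA, which counts as 2 overlapping matches of TGACGT (7.51% of promoters). Of the 2 *Cdkn2a* windows, 1 had an E2F site (1.38% of promoters) and a CCAAT box. No motif was found in the windows of *Ccne1* or of the upstream *Ccnd3* start, which says only that these letters are not there.

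With rising CHIR99021, the 3 D-type cyclins did not move as a group: *Ccnd2* rose several-fold, *Ccnd1* rose slightly and *Ccnd3* fell. *Ccne1* and *Cdkn1b* also fell. In the linear fit on dose (edgeR quasi-likelihood test, Benjamini-Hochberg adjustment over all 10033 genes of the fit), 5 of the 10 genes passed, where 12.5% of all genes tested did. The fit held 9 of the 10, and *Cdkn2a* was kept out by the filter on low counts. Of the 5, 2 rose (background 5.89%) and 3 fell (6.63%). With the class of mitochondrial share as a block all 5 passed, and within the 6 libraries of higher share 4 passed and *Ccnd1* did not (adjusted p = 0.0570). The 4 libraries of lower share were not fitted alone.

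*Ccnd2* (ENSMUSG00000000184, chr6:127125162-127152193, minus strand) was at 10.9 and 11.7 CPM at 0 µM, 24.4 and 27.4 at 2.5 µM, 51.0 and 46.6 at 5 µM, 54.4 and 59.9 at 7.5 µM, and 71.9 and 58.7 CPM at 10 µM. Each step up to 7.5 µM lifted both libraries above those of the dose before, and the libraries at 7.5 and 10 µM overlapped. The share of all genes so separated at each step was not computed. Between 10 and 0 µM, 22.7% of genes averaging 20 CPM or more were separated upward. The slope was 0.22 ± 0.03 log2 units per µM (SE, adjusted p = 1.2e-06). Between 0 and 10 µM the gene rose 5.56-fold (95% interval 3.83 to 8.08, adjusted p = 1.06e-08). It was the only one of the 10 that still passed when the 2 untreated libraries were left out (1 of 10, against 5 with them).

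*Ccnd1* (ENSMUSG00000070348, chr7:144929931-144939925, minus strand) was at 97.8 and 90.4 CPM at 0 µM, 115 and 88.4 at 2.5 µM, 132 and 104 at 5 µM, 118 and 123 at 7.5 µM, and 137 and 126 CPM at 10 µM. The libraries at 10 µM lay above those at 0 µM, but neighboring doses overlapped up to 7.5 µM. Its slope was 0.05 ± 0.02 log2 units per µM (adjusted p = 0.0360). The call was lost under several settings: the adjusted p was 0.0503 in DESeq2 and 0.0532 without the filter on low counts, and it lay between 0.0567 and 0.119 without any 1 of 7 libraries (both at 0 µM, both at 7.5 µM, both at 10 µM or 2.5 µM replicate 2). The change from 0 to 10 µM, 0.46 ± 0.17 on the log2 scale, did not pass (adjusted p = 0.0848), while the change from 0 to the mean of 7.5 and 10 µM did (0.40 ± 0.14, adjusted p = 0.0446).

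*Ccnd3* (ENSMUSG00000034165, chr17:47505051-47599691, plus strand) was at 210 and 211 CPM in the untreated libraries, 141 and 168 at 2.5 µM, 137 and 140 at 5 µM, 116 and 131 at 7.5 µM, and 124 and 120 CPM at 10 µM. All 8 treated libraries lay below both untreated ones. The share of all genes so separated was not computed. The 2 libraries at 10 µM alone lay below in 27.1% of genes averaging 20 CPM or more. The slope was -0.08 ± 0.01 log2 units per µM (adjusted p = 6.71e-05), and the level at 10 µM was 0.582-fold of that at 0 µM (95% interval 0.473 to 0.715, adjusted p = 0.000348). In the 8 treated libraries alone the slope was -0.06 with an adjusted p of 0.191.

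**Figure D1:**
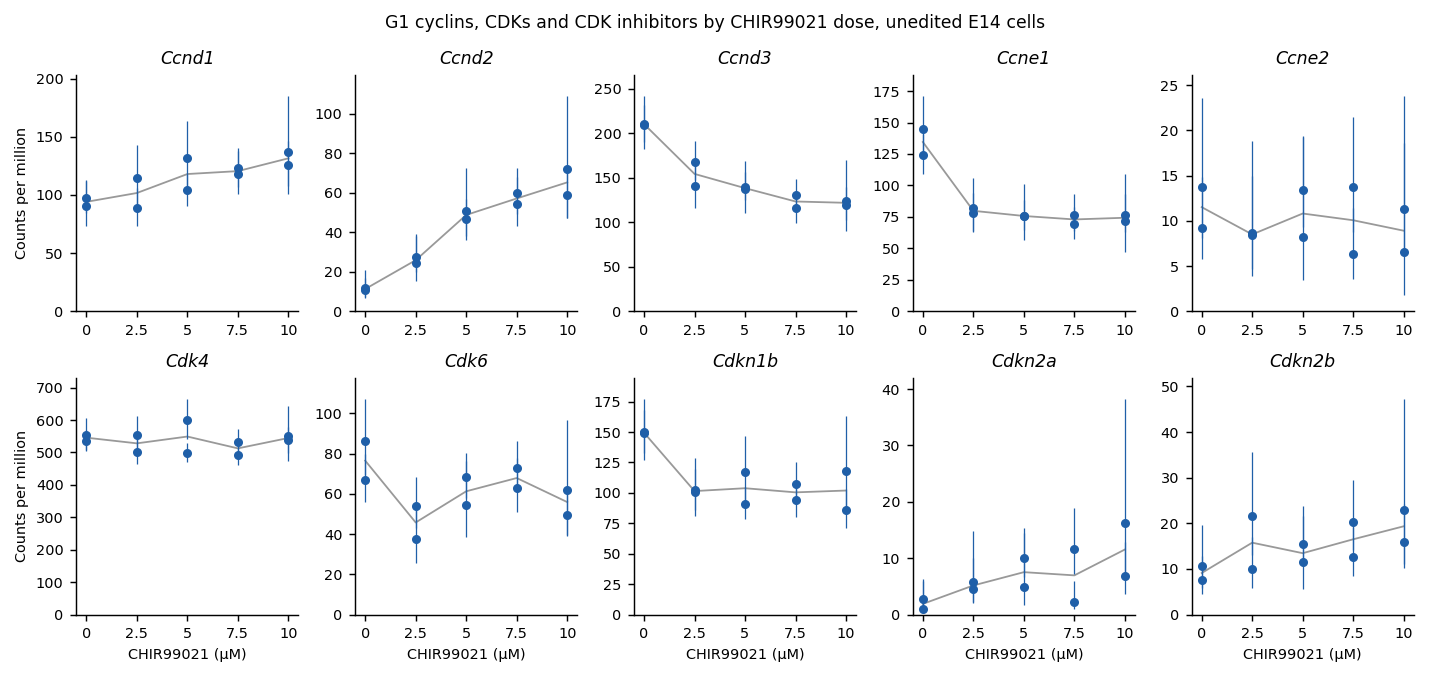
RNA level of the 10 genes (CPM, y axis, from 0) by CHIR99021 dose (µM, x axis) in unedited E14 cells. Points are the 2 libraries of each dose with Wilson 95% counting intervals, and lines join the means. *Ccnd2* climbs from 10.9 and 11.7 to 71.9 and 58.7 CPM, while *Ccne1* and *Cdkn1b* drop between 0 and 2.5 µM and lie at 69.1 to 81.9 and 85.9 to 118 CPM in the treated libraries.

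*Ccne1* and *Cdkn1b* fell mainly between 0 and 2.5 µM. For *Ccnd3*, *Ccne2* and *Cdk6*, too, both libraries at 2.5 µM lay below both at 0 µM. The share of all genes so separated at this step was not computed. *Ccne1* (ENSMUSG00000002068, chr7:38097984-38107534, minus strand), the cyclin that activates CDK2 ahead of S phase, was at 124 and 145 CPM at 0 µM and at 81.9 and 77.8 CPM at 2.5 µM. At 5, 7.5 and 10 µM its 6 libraries lay between 69.1 and 76.9 CPM. Its 8 treated libraries lay below both untreated ones, a separation whose share over all genes was not computed. The level at 10 µM was 0.576-fold of that at 0 µM (95% interval 0.452 to 0.732, adjusted p = 0.00182), and the slope was -0.08 ± 0.02 log2 units per µM (adjusted p = 0.00166). Among treated libraries the slope was -0.02 (adjusted p = 0.884).

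*Cdkn1b* (ENSMUSG00000003031, chr6:134920401-134925513, plus strand), which encodes the inhibitor of cyclin E–CDK2, was at 149 and 150 CPM at 0 µM and at 102 and 101 CPM at 2.5 µM. The libraries at higher doses were spread, with 117 and 90.7 CPM at 5 µM, 107 and 93.9 at 7.5 µM, and 118 and 85.9 at 10 µM. The slope was -0.06 ± 0.02 log2 units per µM (adjusted p = 0.0124) and -0.02 (adjusted p = 0.885) in the treated libraries alone. Leaving out the first or the second untreated library ended this call (adjusted p = 0.157 and 0.0883). The 0.635-fold level at 10 µM (95% interval 0.501 to 0.804, adjusted p = 0.00971) did not pass in DESeq2 (adjusted p = 0.193) or without 10 µM replicate 2 (0.647).

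The kinases and the remaining cyclin did not pass. *Cdk4* (ENSMUSG00000006728, chr10:127063534-127067920, plus strand) was at 536 and 555 CPM at 0 µM and 552 and 537 CPM at 10 µM, and the 10 libraries averaged 536 ± 32.3 CPM (SD). Its 10 µM level was 1.01-fold of that at 0 µM (95% interval 0.843 to 1.21), an interval that leaves little room for a change of the size seen in *Ccnd2*. *Cdk6* (ENSMUSG00000040274, chr5:3341485-3531008, plus strand) was at 66.9 and 86.1 CPM at 0 µM, 37.4 and 54.1 at 2.5 µM, 54.3 and 68.2 at 5 µM, 63.1 and 72.6 at 7.5 µM, and 62.1 and 49.7 at 10 µM, with no steady course over the doses (0.713-fold at 10 µM, 95% interval 0.529 to 0.960, adjusted p = 0.164). *Ccne2* (ENSMUSG00000028212, chr4:11191351-11204779, plus strand) had 2 to 28 counts per library (6.34 to 13.8 CPM), and its interval at 10 µM, 0.493- to 1.86-fold, could not show a change of *Ccne1*'s size at this depth.

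The 2 INK4 genes, neighbors on chromosome 4, were near the floor in untreated cells. *Cdkn2b* (ENSMUSG00000073802, chr4:89306299-89311039, minus strand) was at 7.61 and 10.6 CPM at 0 µM (24 counts in all), 21.6 and 9.91 at 2.5 µM, 11.5 and 15.4 at 5 µM, 20.3 and 12.7 at 7.5 µM, and 22.9 and 15.8 CPM at 10 µM (28 counts). *Cdkn2a* (ENSMUSG00000044303, chr4:89274471-89294653, minus strand) had 5 and 1 counts at 0 µM and 5 and 9 at 10 µM, or 2.72 and 1.06 against 16.3 and 6.78 CPM. In both genes the 2 libraries at 10 µM lay above those at 0 µM, with log2 changes of 1.00 ± 0.45 for *Cdkn2b* (adjusted p = 0.166) and 1.99 ± 0.78 for *Cdkn2a* (adjusted p = 0.103), which did not pass. The *Cdkn2a* gene encodes p16 and p19ARF from different first exons and shared later exons, and counts at the 3′ end do not tell the 2 transcripts apart.

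In the comparison of 10 with 0 µM, 1 of the 10 genes rose (*Ccnd2*, background 4.97%) and 3 fell (*Ccnd3*, *Ccne1* and *Cdkn1b*, background 5.10%), 4 in all against 10.1% of the 10674 genes of that fit. Both libraries at 10 µM lay above both at 0 µM for *Ccnd1*, *Ccnd2*, *Cdkn2a* and *Cdkn2b*, and below them for *Ccnd3*, *Ccne1*, *Cdk6* and *Cdkn1b*, where 22.7 and 27.1% of genes averaging 20 CPM or more, and 20.1 and 23.8% of those averaging 2 to 20 CPM, were so separated. Without 10 µM replicate 2, which leaves the 10 µM group with 1 library of 306157 counts that is assumed to vary like the other doses, 1 of the 10 passed (*Ccnd2*). The summed level of the 10 ES cell markers went down over the same doses, from 5307 and 5360 CPM at 0 µM to between 3721 and 4083 CPM at 10 µM, with 7 of 10 falling and 1 rising in the dose fit. The 7 mesendoderm markers summed to 19.6 and 20.2 CPM at 0 µM and to 133 and 160 CPM at 10 µM, where *Mesp1* was at 0, the 7 neural markers to 75.6 and 81.9 and to between 32.4 and 39.2 CPM, with 2 of the 3 tested falling (*Pax6*, at 0 in both 10 µM libraries, and *Tubb3*), and the 8 primitive endoderm markers to 107 and 113 and to 246 and 265 CPM, with none at 0 in either group. The part of these shifts in the cyclin results was not tested. In bulk RNA, fewer cells with a transcript and less of it per cell cannot be told apart.

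Across the 15 clones, *Ccnd2* and *Ccnd3* moved the other way than with dose, and the slope of *Ccnd1* did not pass. The difference between the series was not tested. No call on MES held without the 3 low clones, though *Cdkn2b* was not in that fit and so was not tested there. *Ccnd2* fell and *Ccnd3* rose with MES, and *Ccne1* and *Cdkn2b* fell. In the linear fit on MES (edgeR, log2 units per 10000 MES units, 10145 genes), 4 of the 10 genes passed, where 22.9% of all genes did, with 1 rising (background 9.91%) and 3 falling (13.0%). Between the high and the low category, 5 of the 10 passed (*Ccnd1* in addition) against 29.8% of 10452 genes, with 1 higher (13.1%) and 4 lower (16.6%). *Cdkn2a* was in neither fit, and *Cdkn2b* entered both through the low clones, where it is high.

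*Ccnd2* was at 80.8 CPM in T41S clone H8 (143 counts), 30.2 in S45C clone D3 and 66.6 in T41N clone D3. Medium clones had 31.9 (S45P clone G5), 7.53 (S45F clone C1) and 35.8 CPM (S45F clone D9), and the 9 high clones ranged from 8.92 to 26.7 CPM with a median of 13.9. Every high clone lay below every low clone, and medium clones overlapped with both. The slope was -0.90 ± 0.17 (adjusted p = 0.000581), and high clones were at 0.259-fold of low clones (95% interval 0.165 to 0.408, adjusted p = 0.00012). The 2 S45F clones differed widely, and over the 4 mutations with 2 clones the SD within a mutation was 0.81 log2 units for this gene, close to the 0.97 over all 15 clones.

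*Ccnd3* varied least between sister clones among the genes that passed. It was at 137 CPM in T41S, 146 in S45C and 153 in T41N, at 180 (S45P), 188 (S45F clone C1) and 160 CPM (S45F clone D9) in the medium clones, and at 223 to 364 CPM (median 275) in the high clones. The 3 categories did not overlap, and the highest level was in S37Y clone A5. Every high clone lay above every low clone in 11.5% of genes averaging 20 CPM or more. The share of genes with all 3 categories apart was not computed. High clones were at 1.92-fold of low clones (95% interval 1.59 to 2.32, adjusted p = 2.23e-05), and the slope was 0.43 ± 0.08 (adjusted p = 0.000853). The SD between 2 clones of the same mutation was 0.12 log2 units, against 0.44 over the 15 clones.

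*Ccnd1* was at 191 CPM in T41S, 149 in S45C and 250 in T41N (95% counting interval 210 to 298), at 162, 90.4 and 164 CPM in S45P and S45F clones C1 and D9, and at 75.5 to 159 CPM (median 100) in the high clones. The categories overlapped. High clones were at 0.551-fold of low clones (95% interval 0.407 to 0.747, adjusted p = 0.00571), a call that ended without T41N clone D3 (adjusted p = 0.0586). The slope on MES was -0.27 ± 0.12 and did not pass (adjusted p = 0.10), but it did without S37F clone G1 (-0.37, 0.0295), with a replicate block (-0.35, 0.0426) and with counts summed per mutation (-0.33, 0.0464).

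**Figure D2:**
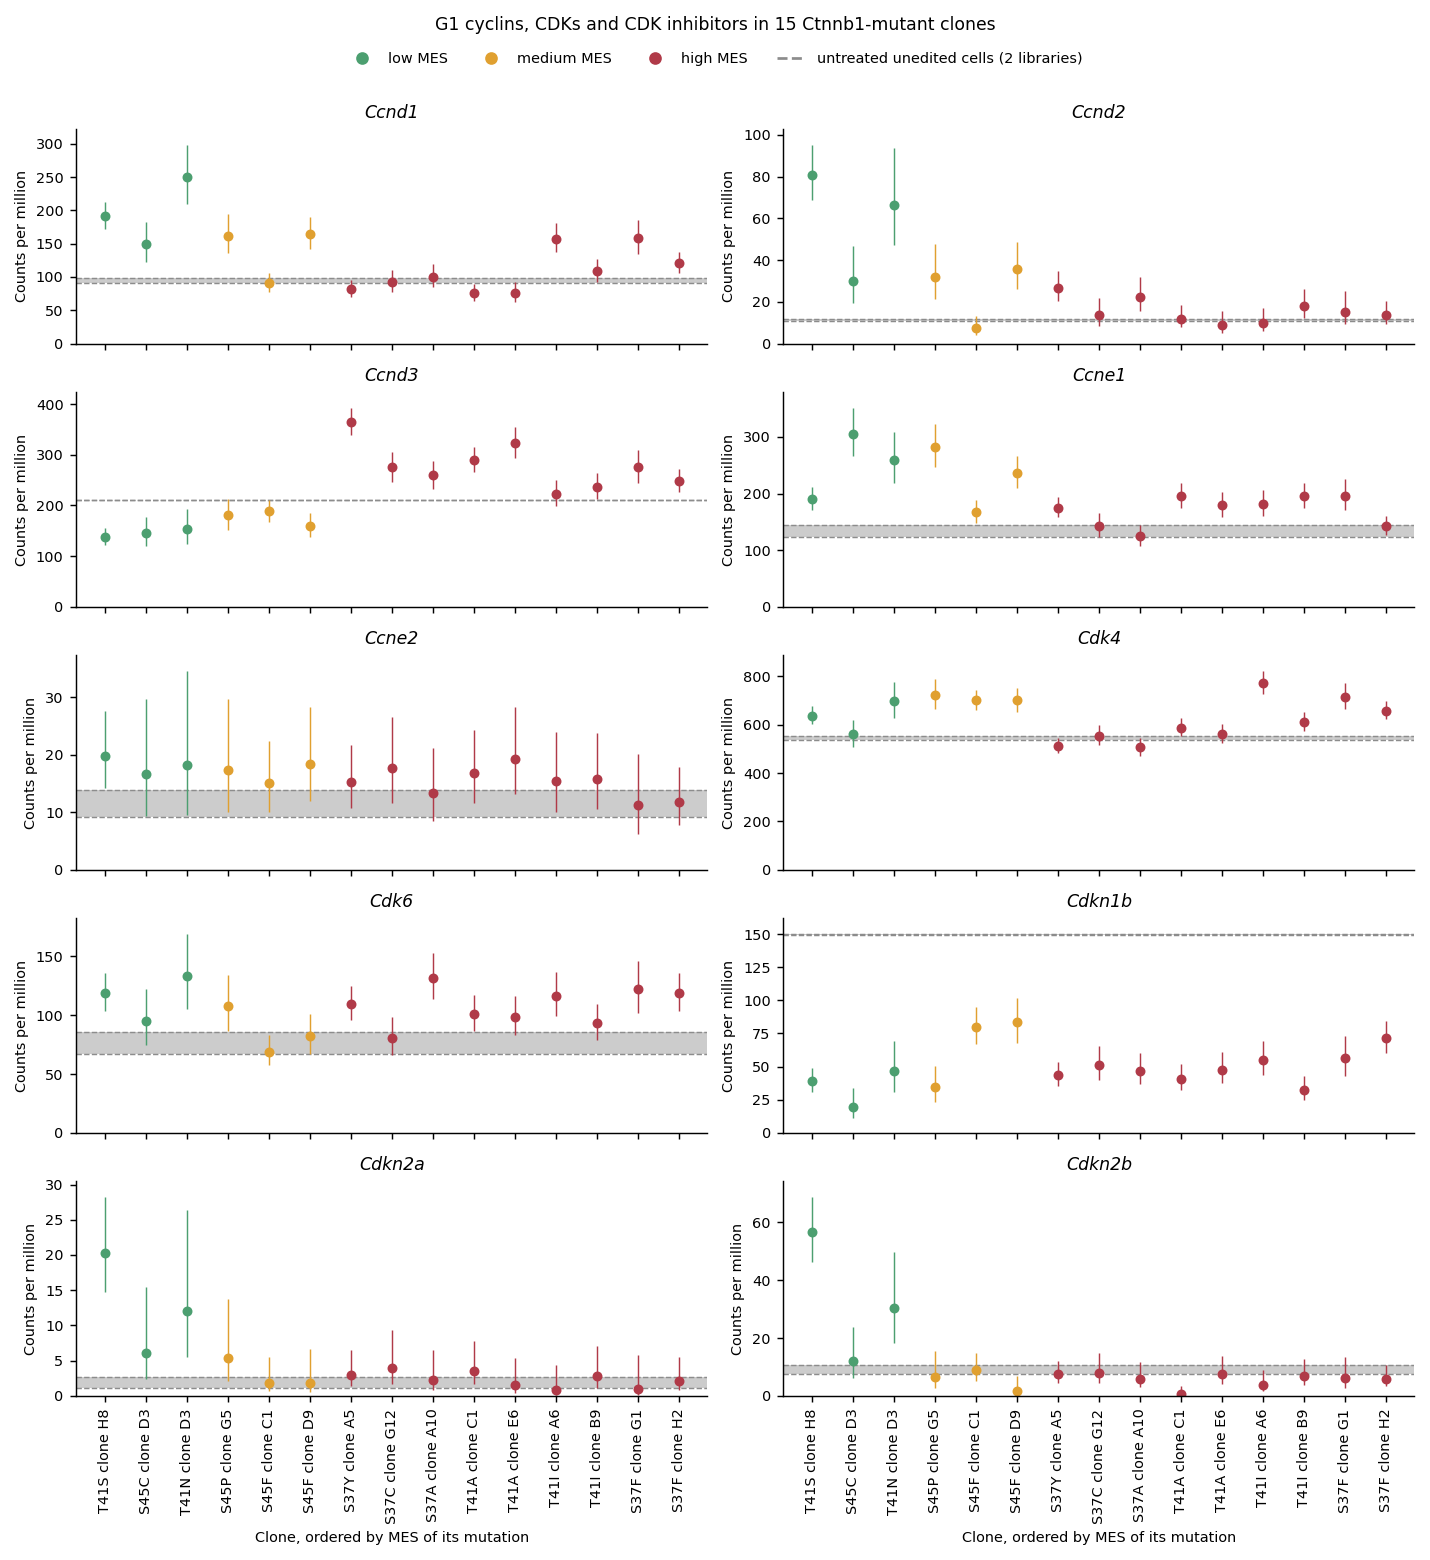
RNA level of the 10 genes (CPM, y axis, from 0) in the 15 clones, ordered on the x axis by the MES of their mutation and colored by category. Points are single libraries with Wilson 95% counting intervals, and the grey band spans the 2 untreated unedited libraries. *Ccnd3* rises from 137 to 153 CPM in the low clones to 223 to 364 CPM in the high ones, *Ccnd2*, *Cdkn2a* and *Cdkn2b* peak in T41S and T41N, and *Cdkn1b* lies below the band in all 15 clones.

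Among E-type cyclins, *Ccne1* was at 190 (T41S), 306 (S45C) and 260 CPM (T41N) in the low clones, 282 (S45P), 167 and 237 CPM (S45F clones C1 and D9) in the medium clones, and 125 to 196 CPM (median 179) in the high clones. The low and high ranges overlapped at T41S. High clones were at 0.689-fold of low clones (95% interval 0.552 to 0.861, adjusted p = 0.0163), and the slope was -0.25 ± 0.08 (adjusted p = 0.0305). Without S45C clone D3 neither call held (adjusted p = 0.156 and 0.163), and the category call also ended without T41N clone D3 (0.0652). The call on MES ended in 10 of 28 alternatives, among them without S37F clone H2 (0.0706), S45P clone G5 (0.0567) or T41N clone D3 (0.0643) and on the rank of MES (0.0903). With codon as a block the slope was -0.10 ± 0.09 (adjusted p = 0.498). *Ccne2* lay between 11.3 and 19.8 CPM in the 15 clones, its categories overlapped, and its slope of -0.17 ± 0.10 did not pass (adjusted p = 0.204).

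The INK4 genes were high in 2 of the low clones. *Cdkn2b* was at 56.5 CPM in T41S (100 counts, 46.4 to 68.7), 30.3 in T41N (15 counts, 18.3 to 49.9) and 12.1 in S45C (8 counts), against 1.83 to 8.79 CPM in medium clones and 0.599 to 7.99 CPM (median 6.14) in high clones. All 12 medium and high clones lay below the 3 low ones, a separation whose share over all genes was not computed. High clones were at 0.162-fold of low clones (95% interval 0.0955 to 0.276, adjusted p = 2.42e-05). The slope on MES was -1.18 ± 0.22 (adjusted p = 0.000636), and without T41S clone H8 it was -0.63 and no longer passed (adjusted p = 0.178). Without the 3 low clones *Cdkn2b* did not clear the filter on low counts. It entered these fits through the clones where it is high, so passing them is no separate support for a difference.

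*Cdkn2a* showed the same order, at 20.3 CPM in T41S (36 counts, 14.7 to 28.2), 12.1 in T41N (6 counts, 5.55 to 26.4) and 6.03 in S45C (4 counts), 1.83 to 5.32 CPM in medium clones and 0.776 to 4.0 CPM in high clones. The filter on low counts kept it out of the main fits. Slopes were -1.45 to -1.19 in 3 alternative MES fits that held it (no filter, codon as a block, counts summed per mutation). In 7 alternative category fits, log2 differences between high and low clones were -2.81 to -2.26. Its adjusted p was under 0.05 in each, but these fits reuse the same few counts. Apart from the fits without the filter, it entered them through T41S and T41N, where it is high. Passing them is therefore no separate support for a difference. Of the 87 *Cdkn2a* counts in all 15 clones, 36 were from T41S clone H8.

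*Cdkn1b* did not pass with MES (0.18 ± 0.13, adjusted p = 0.353). It was at 39.0 (T41S), 19.6 (S45C) and 46.4 CPM (T41N) in low clones, 34.6 (S45P), 79.7 and 83.5 CPM (S45F clones C1 and D9) in medium clones, and 32.4 to 71.5 CPM (median 47.6) in high clones. The 2 highest levels were those of the 2 S45F clones. In S45F clone D9, however, the 320 genes of chromosome 6 averaging 20 CPM or more in the clones were shifted together, by a median of 0.45 log2 units from the median clone, and the 47 genes within 10 Mb of *Cdkn1b* by 0.44. *Ccnd2* lies on the same chromosome, with a shift of 0.43 over the 68 genes within 10 Mb in that clone. The part of this shift in either gene was not tested. For the other chromosomes that carry these genes, medians in single clones lay between -0.16 and 0.04. Within 10 Mb of the gene they reached -0.27 near *Ccnd3* and -0.24 near *Ccne1*, both in T41S clone H8, and 0.30 near *Ccne2* in T41N clone D3.

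The kinase genes did not pass with MES. *Cdk4* ranged from 506 to 773 CPM and *Cdk6* from 69.0 to 133 CPM in the clones, with slopes of 0.00 ± 0.06 (adjusted p = 0.980) and 0.04 ± 0.08 (0.802). High clones were at 0.969-fold of low clones for *Cdk4* (95% interval 0.819 to 1.15) and 0.936-fold for *Cdk6* (0.753 to 1.16).

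The calls on MES were lost in narrower sets of clones. No gene tested passed without the 3 low clones or without the 2 clones farthest from the median MES. None passed within the 9 high clones either (edgeR in each case). *Cdkn2a* was in none of these fits, and *Cdkn2b* only in that without the 2 farthest clones. At an unadjusted p under 0.05 these fits held 2, 3 and 3 of the genes tested. Without T41N and T41S, 1 passed (*Ccnd3*). Over all genes the number passing went from 2320 to 23, 385, 207 and 603 in these 4 fits. Lost calls did not always mean smaller slopes. Without the 3 low clones the slope of *Ccne1* was -0.25 ± 0.13, against -0.25 ± 0.08 in all 15 clones, that of *Ccnd3* 0.35 ± 0.15 against 0.43 ± 0.08, and that of *Ccnd2* -0.55 ± 0.29 against -0.90 ± 0.17. Without the 2 farthest clones they were -0.29 ± 0.11, 0.41 ± 0.12 and -0.87 ± 0.26. In the high clones alone the slopes of *Ccnd1* (0.83, adjusted p = 0.0790), *Ccnd3* (-0.28) and *Ccne1* (0.12) had the opposite sign. In every high clone 3 of the 10 genes (*Ccnd2*, *Cdkn2a* and *Cdkn2b*) were lower than in every low clone and 1 (*Ccnd3*) was higher, where 11.1 and 11.5% of the 7091 genes averaging 20 CPM or more were so separated. Among the 5208 genes averaging 2 to 20 CPM, the range of both INK4 genes, the shares were 9.70% lower and 3.97% higher.

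Other features also differed between low and high clones. The 10 ES cell markers summed to 2448 to 3809 CPM in low clones, 4601 to 5722 in medium and 4941 to 6213 in high clones. The 7 neural markers summed to 127 to 216 CPM in low clones (*Neurog1* at 0) and 20.1 to 88.4 CPM in high clones, and 3 of the 3 in the MES fit fell. The medium clones, at 91.6 to 133 CPM (*Olig2* at 0), overlapped with the low ones. The 8 fibroblast markers summed to 52.8 to 172 CPM in low clones and 4.82 to 26.7 CPM in high clones, where *Lum* was at 0. They summed to 5.50 to 24.0 CPM in medium clones and to 37.2 to 107 CPM in the 10 unedited libraries. Low and high clones overlapped in the primitive endoderm sums (125 to 330 and 122 to 947 CPM). They also overlapped in the mesendoderm sums (22.2 to 72.3 and 28.7 to 94.1 CPM, with *Gsc* and *Tbx6* at 0 in low clones). The median library of the low clones held 662881 counts and that of the high clones 1345179. The part of these in the cyclin and inhibitor results was not tested.

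Against the 2 untreated unedited libraries, which are also the 0 µM libraries of the dose comparison, 1 of the 10 genes passed in the 15 clones (background 19.7% of 11018 genes, 9.94% higher and 9.74% lower). *Cdkn1b* fell to 0.333-fold (95% interval 0.231 to 0.481, adjusted p = 0.000659): all 15 clones, at 19.6 to 83.5 CPM, lay below the untreated libraries at 149 and 150 CPM, a separation found downward in 10.0% and upward in 14.6% of genes averaging 20 CPM or more. This call held in all 23 alternatives, with adjusted p from 6.61e-06 to 0.0328, and the clones also lay below the 85.9 to 118 CPM of the 8 treated libraries. The mutation, the targeting and the cloning go together in these clones and cannot be told apart, and the mitochondrial share of 1.53 to 2.52% in the clones was also above the 1.31 and 0.562% of the untreated libraries.

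*Ccne1*, *Ccne2*, *Cdk4*, *Cdk6* and *Ccnd2* were above both untreated libraries in 12 of 15 clones each, but with log2 differences of 0.54 ± 0.25, 0.50 ± 0.25, 0.20 ± 0.15, 0.45 ± 0.21 and 1.16 ± 0.77 none passed (adjusted p from 0.142 to 0.361). Taken by category, the values differed. For the 3 low clones alone, 7 of the 10 genes differed from untreated cells, where 28.8% of 9559 genes did (13.3% higher and 15.5% lower): *Ccnd2* (log2 2.37, adjusted p = 0.003), *Cdkn2a* (2.63, 0.0152), *Cdkn2b* (1.96, 0.0243), *Ccnd1* (0.97, 0.00966) and *Ccne1* (0.81, 0.0161) were higher, and *Ccnd3* (-0.62, 0.013) and *Cdkn1b* were lower. In this low-clone fit, *Cdkn2a* had 36 (T41S), 6 (T41N) and 4 (S45C) counts, against 5 and 1 in the untreated libraries. It cleared the count filter only through low clones, where it is high, so its call is no separate support. For the 9 high clones, 2 of the 10 differed, where 34.1% of 10598 genes did (15.8% higher and 18.3% lower): *Cdkn1b* was lower and *Cdk6* was higher (0.50, adjusted p = 0.0401).

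The drug and the mutation series share no library, and their values can be set side by side. From 0 to 10 µM, *Ccnd2* changed by 2.48 and *Ccnd3* by -0.78 on the log2 scale, whereas from low to high MES *Ccnd2* changed by -1.95 and *Ccnd3* by 0.94. *Ccne1* fell in both (-0.80 and -0.54). For *Ccnd1* the values were 0.46 and -0.86, for *Cdkn2b* 1.00 and -2.62, and for *Cdkn1b* -0.66 and 0.49. The difference between the series was not tested. In level, *Ccnd2* in T41S and T41N (80.8 and 66.6 CPM) was at or above that of the cells at 10 µM (71.9 and 58.7 CPM), and the high clones (8.92 to 26.7 CPM) were around the untreated cells (10.9 and 11.7 CPM). *Ccne1* at 10 µM (71.9 and 76.8 CPM) was below its level in all 15 clones (125 to 306 CPM).

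**Figure D3:**
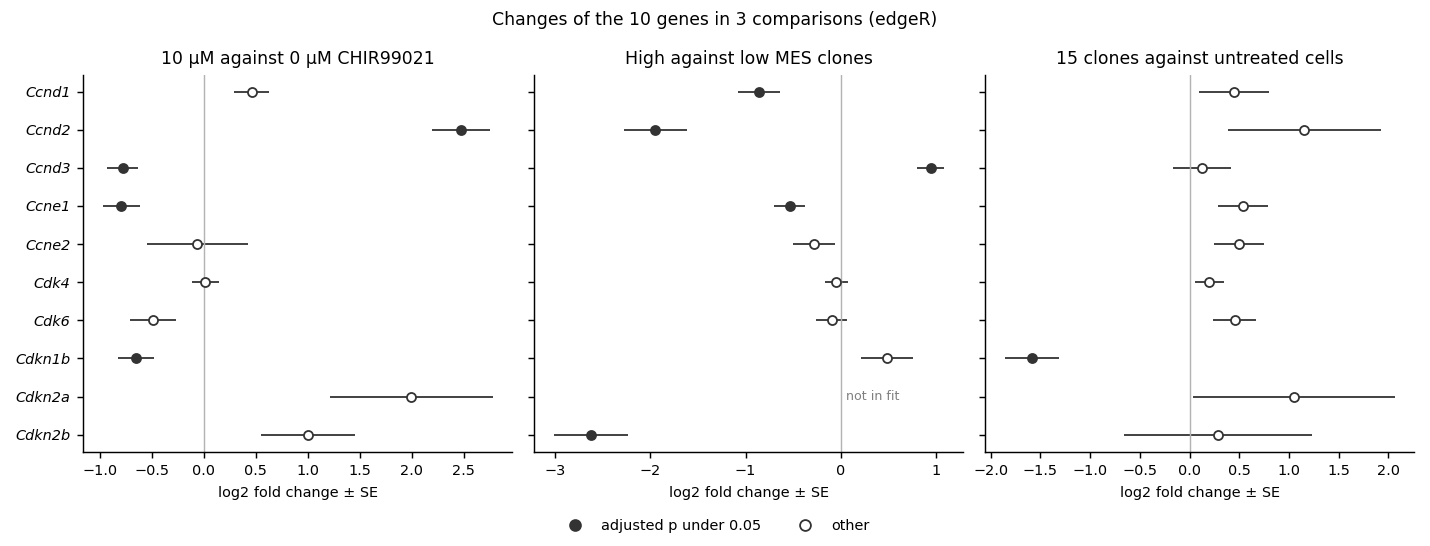
Log2 fold change with its standard error (x axis, edgeR) of the 10 genes (y axis) in 3 comparisons, with filled points where the adjusted p is under 0.05. *Ccnd2* and *Ccnd3* lie on opposite sides of 0 in the first panel (2.48 and -0.78) and again, the other way round, in the second (-1.95 and 0.94), and *Cdkn1b* alone is filled in the third (-1.59).

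The 3′ ends of 5 of the 10 genes overlap a gene on the other strand in the GENCODE M21 annotation, and whether counting used strand is not given in the sources used here. *Ccnd1* overlaps *LTO1* over 1771 bases, and *LTO1* moved with it: it rose with dose (0.08 ± 0.02 per µM, adjusted p = 0.0307) and was lower in high than in low clones (-0.71 ± 0.23, adjusted p = 0.0260). Reads of this pair cannot be told apart without strand. *Bysl*, which overlaps *Ccnd3* over 361 bases, did not pass with dose (-0.01, adjusted p = 0.809) or between categories (0.10, 0.661), and it rose in the clones against untreated cells (1.22 ± 0.19, adjusted p = 0.000375). For *Cdk4* with *Tspan31* (641 bases) and *Ccne2* with *Ints8* (5622 bases), neither partner passed in the fits on dose and MES. The partner of *Ccnd2*, *Gm43126* (994 bases), was in no fit.

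For the gene lists that follow, 12.5% of all genes tested passed with dose (5.89% rose, 6.63% fell). With MES 22.9% passed (9.91% rose, 13.0% fell). In the wider G1/S network, of 12 partners of the CDK complexes, 0 rose and 2 fell with dose (*Ccna2*, the S-phase cyclin, -0.04 per µM, adjusted p = 0.0231, and *Skp1a*, a subunit of the SCF ubiquitin ligase, -0.03, 0.0375). With MES, 1 rose and 3 fell. Those that fell were *Cks1b* (-0.28, adjusted p = 0.000445), *Skp2* (-0.29, 0.0102) and *Cul1* (-0.25, 0.00783), which with *Skp1a* form or assist the ligase that degrades p27, and the gene that rose was *Cdk2* (0.25, 0.0181, named after its value was seen), the kinase of E-type cyclins.

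Of 5 other CDK inhibitors, 4 were in the dose fit, where 2 rose and 0 fell. Those that rose were *Cdkn1a*, which encodes p21, by 0.14 ± 0.02 per µM (adjusted p = 8.05e-06, and 2.90-fold from 0 to 10 µM) and *Cdkn1c*, which encodes p57, by 0.10 ± 0.02 (0.000269). The slopes of *Cdkn3* (-0.07 ± 0.03, adjusted p = 0.103) and *Cdkn2d* (-0.01 ± 0.03, 0.967) did not pass, and the former was about that of *Cdkn1b* (-0.06). With MES, 0 rose and *Cdkn1c* fell (-0.82 ± 0.19, adjusted p = 0.00299). The slope of *Cdkn1a* with MES was 0.15 ± 0.11 (adjusted p = 0.342), beside 0.18 ± 0.13 (0.353) for *Cdkn1b*. *Cdkn1c* had the sign of *Ccnd2* in both series, and the similarity was not tested. Against untreated cells, *Cdkn2d*, which encodes p19 of the INK4 family, fell in the clones (log2 -1.23 ± 0.32, adjusted p = 0.0113), as *Cdkn1b* did (-1.59 ± 0.27). *Cdkn3* and *Cdkn2d* are named after their values were seen.

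Of 13 genes of the RB and E2F family, 12 were in the dose fit, where 0 rose and 1 fell (*Tfdp2*, an E2F partner, -0.18 ± 0.03, adjusted p = 7.94e-05). With MES, 2 of 13 rose, *E2f1* (0.36, adjusted p = 0.00539) and *Rbl1* (0.39, 0.0313), and 4 fell, *Rb1* itself (-0.50, 0.00686), *E2f8* (-0.47, 0.0102), *E2f7* (-0.41, 0.0136) and *E2f5* (-0.23, 0.0278). *Rbl1*, *E2f7* and *E2f5* are named after their values were seen. Of 16 S-phase genes driven by E2F, 0 rose and 3 fell with dose (*Rrm2*, *Tk1* and *Mcm7*, by -0.04, -0.06 and -0.04 per µM), and 6 rose and 0 fell with MES, led by the replicative helicase genes *Mcm5* (0.35, adjusted p = 0.000109), *Mcm3* (0.27, 0.00434) and *Mcm2* (0.31, 0.0118). Median slopes per µM and per 10000 MES units were -0.03 and 0.07 for the S-phase list, -0.01 and -0.13 for the RB and E2F family, 0.00 and 0.02 for the CDK partners and 0.05 and 0.15 for the other inhibitors, against 0.00 over all genes in both fits.

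Of 10 feedback targets of the Wnt pathway, 9 were in the dose fit and 8 rose, led by *Nkd1* (0.31 per µM), *Notum* (0.29) and *Axin2* (0.28), with a median slope of 0.24. In the MES fit 8 were tested and 1 rose, *Axin2* (0.44 ± 0.14, adjusted p = 0.0323), with a median of 0.12. *Ccnd2*, at 0.22 per µM, had a slope close to the dose median of 0.24, while *Ccnd1* at 0.05 lay below it. Within the list, *Tcf7* had about the slope of *Ccnd1* (0.05 per µM, adjusted p = 0.0405, edgeR, named after its value was seen).

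Over the 15 clones, the genes whose log2 (CPM + 1) levels tracked those of the cyclins and inhibitors most closely among 7002 genes averaging 20 CPM or more were *Trove2* (Pearson r = 0.913) and *Pdap1* (0.912) for *Ccnd1*, *Arpc5* (0.904) and *Nefl* (0.895) for *Ccnd2*, and *Phyh* (0.939) and *Nsmce1* (0.934) for *Ccnd3*. For *Ccne1* they were *Pop1* (0.922) and *Hspe1* (0.908), for *Cdk4* *4933404O12Rik* (0.918) and *Comtd1* (0.896), and for *Cdkn1b* *Dtx3* (0.884) and *Anapc7* (0.883). No gene was shared between these 6 pairs. These values describe 15 libraries whose levels share depth and category, and carry no test.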

How the data were processed

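The 25 libraries were made by mcSCRB-seq, which reads 3′ ends in bulk RNA and tags each molecule. The authors deposited deduplicated counts per gene, with no normalization, from reads aligned to mm10 (UMI-tools, Picard and featureCounts 2.0.1, per the submitters' processing notes). The annotation release and strand setting are not given in the sources used here. Symbols and coordinates came from GENCODE M21, which holds 48058 of the 48440 gene IDs. The members and gene lists were chosen with earlier results of these data known. CPM are counts divided by the library total. Differences were tested across all genes with edgeR 4.0.16 (quasi-likelihood F-test after TMM, with a filterByExpr minimum of 10 counts and a Benjamini-Hochberg threshold of 0.05), on dose or MES as linear terms, on dose or category as factors, or on edited against untreated cells. MES values were those tabulated for each mutation in the study. For T41A the study's source data held another value as well, which was used in an alternative fit. DESeq2 1.42.0 was an alternative. Genes outside the 10 were named if they passed in the dose or MES fit, at most 3 per list by p, or as the 2 most alike over the clones, with the exceptions given. Alternatives left out each library, the filter or the untreated libraries, thinned counts to the smallest library, changed normalization, or used blocks. The steps were tested on simulated data.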

Additional observations from a re-analysis of the deposited data

How the results depend on the processing

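Directions and calls of the members were recomputed 988 times (1 member under 1 alternative), and 887 kept their direction and side of the threshold, 48 lost and 11 gained a call, and 42 changed sign. Of the 395 values of calls made in the main fits, 345 kept the call. Counts of the 10 genes that passed moved as follows. In the dose fit (5), counts thinned to the smallest library gave 2, the 8 treated libraries gave 1, and leaving out each library gave 3 to 5 (3 without either 0 µM library). For 10 against 0 µM (4), thinning gave 1 and leaving out each library 1 to 4. For MES (4), leaving out each clone gave 3 to 5, and the count was 0 without the 2 clones farthest from the median MES, without the 3 low clones or in the 9 high clones, and 1 without T41N and T41S. Neither INK4 gene was in the fits without the 3 low clones or in the 9 high clones. For high against low clones (5), leaving out each clone gave 3 (without T41N) to 6. For clones against untreated cells (1), leaving out each library gave 1 to 1, the 9 high clones gave 2 and the 3 low clones 7.

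Most sign changes were of log2 values near 0. *Cdk4* took, with dose 0.00, for 10 against 0 µM 0.00 (no filter), -0.03 to 0.07 (leaving out each library) and -0.04 (7.5 and 10 µM together), with MES 0.00, -0.01, -0.02, -0.03 and -0.04, and between categories 0.01 (no filter) and -0.12 to 0.03 (leaving out each clone). With dose, *Cdk6* took 0.03 (thinned), 0.02 and 0.00 and *Ccne2* 0.02, 0.01 and 0.00, and *Ccne2* took -0.67 to 0.18 for 10 against 0 µM on leaving out each library. With MES, *Cdk6* was -0.10 with codon as a block and *Cdkn1b* -0.02 and -0.07 without the farthest or low clones. Within the 9 high clones *Ccnd1* was 0.83, *Ccnd3* -0.28 and *Ccne1* 0.12. Against untreated cells *Cdkn2b* was -0.07 (thinned), -0.34 (without T41S) to 0.48 on leaving out each library, and -0.63 (high clones), and *Ccnd3* -0.62 (low clones). The causes were not tested.

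Replicate numbers did not pair the libraries: deviations of same-numbered libraries correlated at -0.232 to 0.188 among doses (3 of 10 pairs over 0.1) and -0.178 to 0.142 among clones. With a replicate block, 5, 5, 5 and 6 of the 10 genes passed in the dose, 10 against 0 µM, MES and category fits. Gained were *Cdkn2a* at 10 µM (adjusted p = 0.0497) and between categories and *Ccnd1* with MES (0.0426), and all-gene counts moved from 1256 to 1140, 1074 to 916, 2320 to 2227 and 3110 to 3170. All-gene counts also moved with thinning, to 296, 324, 1449, 1884 and (from 2168) 1153, with DESeq2 at 10 µM to 359, with 7.5 and 10 µM together to 1687, and without the untreated libraries in the dose fit to 121. They were 3612 for the 9 high clones against untreated cells. Leaving out 1 library gave as few as 527 (dose) and 386 (clones against untreated cells), both without 0 µM replicate 1, 260 (10 against 0 µM, without 10 µM replicate 2), and 1199 (MES) and 1653 (categories), both without T41S. Depth limits *Cdkn2a*, *Cdkn2b* and *Ccne2*, whose single libraries held as few as 1, 1 and 2 counts.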
